A study of Homo sapiens with 12 samples.

Results

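The m6A peaks described here carried no gene number. In the deposited peak lists of 143B cells most peaks bear the number of a gene, and 6692 of 81380 peaks (8.22%) have NA in that place. These 6692 were taken as they stand and joined over the lists wherever exon blocks on the same strand shared at least 1 base, which gave 1781 regions. The 74688 other peaks, called numbered here, gave 20913 regions when joined in the same way, and all peaks together gave 21675.

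143B is an established human osteosarcoma cell line. Its cells were transfected for 48 h with siRNA against ALKBH5, the knockdown, or with scrambled siRNA, the control, and N6-methyladenosine (m6A) was mapped by MeRIP-seq, an assay that sequences the RNA fragments bound by an m6A antibody. Of 12 samples, the 6 immunoprecipitates, 3 for each siRNA, each had 1 peak list, and the 6 inputs were not analysed here. Replicate numbers also mark the method: replicates 1 and 3 used polyadenylated RNA and different antibodies, and replicate 2 used total RNA, a commercial kit and a further antibody, per the protocol in the labels. The antibody field names the antibody of replicate 1 for all 6 immunoprecipitates. Nothing in the labels says that the replicates were separate cultures, so p-values measure only the spread between these libraries, which may be technical.

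m6A is a methyl mark that a writer complex places on adenosines of messenger and long noncoding RNA, often in long exons and near stop codons, and that ALKBH5 removes. A peak list ties each mark to a gene through a transcript model, and the gene number of a model is a catalogue entry and no property of the RNA. Many antisense and intergenic noncoding transcripts are known without such an entry. Here the peaks were described by position alone, against the numbered peaks of the same lists.

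The peaks without a number made up a nearly constant part of every list. Values are given in the order of replicates 1, 2 and 3 throughout. The knockdown lists held 1406, 466 and 1510 of them, and the control lists held 1271, 422 and 1617. As shares of the list these were 8.01%, 7.88% and 8.22% in the knockdown and 8.40%, 7.43% and 8.64% in the control. The replicate 2 lists, of 5917 and 5677 peaks in all, were the shortest, against 15139 to 18724 in the others. The lists hold no read counts, so the depth behind them is unknown. ALKBH5 itself had 0 numbered peaks in each of the 3 knockdown lists and 1, 0 and 1 in the controls, and since peak calls are not RNA levels, the strength of the knockdown was not measured here.

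**Figure D1:**
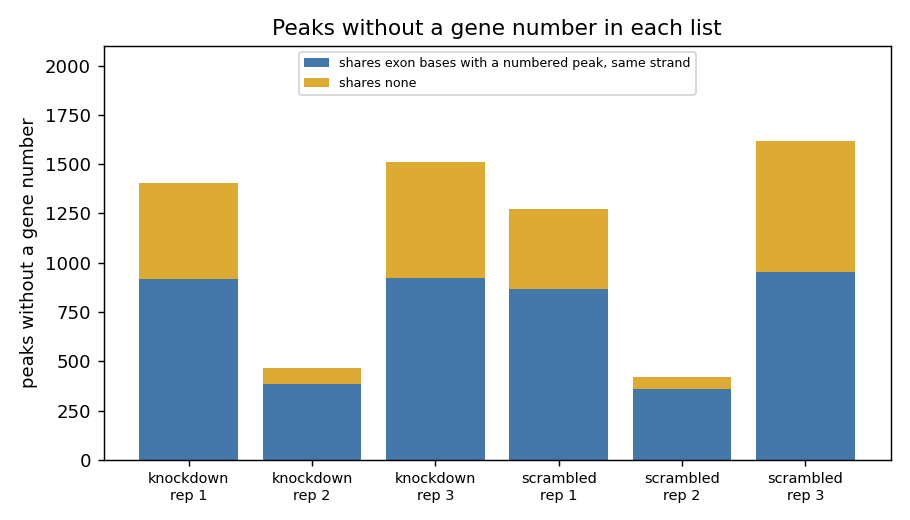
Number of peaks without a gene number (vertical axis) in each of the 6 lists, split into those that share at least 1 exon base with a numbered peak on the same strand of the same list (blue) and those that share none (yellow). The blue part runs from 357 to 953 peaks and is the larger part in every list.

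Most of these peaks lay on top of a numbered peak of the same strand and list. In the knockdown lists 916, 384 and 920 of them shared exon bases with a numbered peak, and in the control lists 869, 357 and 953. That is 65.1%, 82.4% and 60.9% of them in the knockdown and 68.4%, 84.6% and 58.9% in the control. Numbered peaks shared bases with another numbered peak far less often, in 1.79% to 2.84% of cases. Peaks without a number also seldom shared bases with each other, in 15, 8 and 23 cases in the knockdown and 19, 6 and 22 in the control. Overlap between the kinds is thus set against overlap within a kind. The test below cannot separate a trait of these peaks from that unlike comparison. The mean difference over the lists was 67.8 percentage points, with the peaks without a number higher in 6 of 6 libraries. An exact two-sided sign-flip permutation test gave p = 0.03125, the smallest that 6 libraries allow, and an adjusted p of 0.05 over 8 tests (Benjamini-Hochberg), which does not pass the threshold of 0.05. The 6 libraries come from the same cells and often list the same sites, so they are not independent of each other.

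The overlap was close to complete. Over the lists, the median peak of this kind had 96.6% to 99.0% of its exon bases inside numbered peaks, and 98.0% to 99.2% of them had at least 50% inside. Both ends lay within 30 nt of those of the numbered peak in 41.2% to 78.2%, yet both ends were identical in only 0.435% to 1.68%. The peak without a number was shorter than its numbered counterpart in 53.5% to 72.2% and longer in 21.3% to 27.3%. Its score was the lower, that is the stronger, in 29.1% to 31.4% and equal in 20.04% to 28.3%. These peaks thus repeated a site that the list already gave under a gene.

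Counted as regions, 998 of the 1781 (56.0%) shared bases with a numbered peak in at least 1 list, and are called sharing regions. The other 783 (44.0%) shared none in any list, and are called lone regions. The numbered peaks under the sharing regions belonged to 718 genes, of which 715 have a symbol in the RefSeq gene table, and 11 of the 998 regions touched more than 1 gene. Of the 715 genes, 680 (95.1%) are protein coding, 25 are lncRNA genes and 10 are transcribed pseudogenes. Over all 10500 genes with a numbered peak and a symbol, 92.8% are protein coding and 5.19% are lncRNA genes.

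The sharing regions that ranked best in all 6 libraries each repeated a numbered peak of a protein-coding gene. Regions were ordered by the lowest of their 6 within-list score percentiles, where 100 is the best score of a list. The leading region lay in SLC38A10, which encodes a member of the amino acid transporter family, at chromosome 17, 79218804 to 79220524 (hg19, minus strand, lowest percentile 98.7). Its peaks covered 1603, 1247 and 1721 nt in the knockdown and 1366, 861 and 1721 nt in the controls. The numbered SLC38A10 peaks there covered 2153, 1316 and 2213 nt in the knockdown and 1376, 868 and 1884 nt in the control, so each list gave the site under both entries and the numbered one was the longer in all 6 lists.

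TRIM56, a RING-type ubiquitin ligase, followed at chromosome 7, 100730594 to 100732861 (plus strand). The peaks without a number covered 1942, 1167 and 2238 nt in the knockdown and 1852, 720 and 2090 nt in the control. The longest was in replicate 3 and the shortest in replicate 2 for both siRNAs. IRS1, the adaptor that links the insulin receptor to downstream kinases, carried a region at chromosome 2, 227659726 to 227662112 (minus strand). It was covered over 1910, 1523 and 2387 nt in the knockdown and 1285, 1137 and 2090 nt in the control. In TRIM56 and IRS1, as in MRTFA, the peaks were longer in the knockdown in all 3 pairs, which held for 74 of the 234 regions called in all 6 libraries (31.6%), against 31.6% of the regions of all peaks called in 6. RBM15, a subunit of the m6A writer complex that guides it to RNA, held a region at chromosome 1, 110882511 to 110884952 (plus strand). Its peaks covered 2175, 1253 and 2323 nt in the knockdown and 1551, 1135 and 2323 nt in the control.

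The other 6 of the best 10 showed the same double listing. They lay in LRFN4, a synaptic adhesion protein, ZBTB18, a zinc finger repressor, MRTFA, a coactivator of serum response factor, N4BP3, ATXN1L, a partner of the repressor capicua, and RBM12B, an RNA-binding protein. In MRTFA, at chromosome 22, 40807103 to 40807821 (minus strand), the peaks without a number covered 629, 270 and 599 nt in the knockdown and 539, 210 and 569 nt in the control. The numbered MRTFA peaks covered 631, 271 and 601 nt and 541, 211 and 571 nt, so the listings differed by 1 to 2 nt in every library. In ATXN1L, at chromosome 16, 71884364 to 71885683 (plus strand), they covered 1110, 661 and 1320 nt in the knockdown and 1110, 931 and 1260 nt in the control.

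Most of the 718 genes had 1 sharing region (513 genes), and 57 had at least 3. SAMD9L and SAMD9, neighbouring genes of antiviral and growth-restricting proteins, had 6 and 5. ZNF407, a zinc finger gene, and LINC02591, a noncoding RNA gene, had 5 each. Groups of 4 lay in ADAM21, a membrane metalloprotease gene, CHAMP1, which acts in chromosome alignment, FAM200B, ISLR2, PWWP3B, SLITRK2, SNX21, THAP12 and C22orf46P. Several of these genes, among them SAMD9, SAMD9L, ADAM21 and SLITRK2, are known to hold their coding sequence in a single exon.

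Zinc finger genes of the ZBTB and ZNF groups held sharing regions at a higher share than all numbered genes did. These symbol groups were chosen after the lists were seen, and their counts carry no test. Of 40 ZBTB genes with a numbered peak, 15 (37.5%) had a sharing region, against 6.81% of all numbered genes. The ZBTB genes, which pair a BTB dimerization domain with zinc fingers, held 27 sharing regions, 6 of them called in all 6 libraries, in ZBTB18, ZBTB22, ZBTB38, ZBTB39, ZBTB42 and ZBTB5. Of 409 ZNF genes 51 (12.5%) had one. All 3 SLITRK genes with a numbered peak, which encode synaptic adhesion proteins, had sharing regions: 4 in SLITRK2, 3 in SLITRK5 and 1 in SLITRK6, none called in all 6 libraries. The higher share was not limited to zinc finger genes, as 3 of 23 KLHL genes (13.0%) and 4 of 43 TRIM genes (9.30%) had a sharing region. Only 1 of 49 PCDH genes (2.04%) had one.

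**Figure D2:**
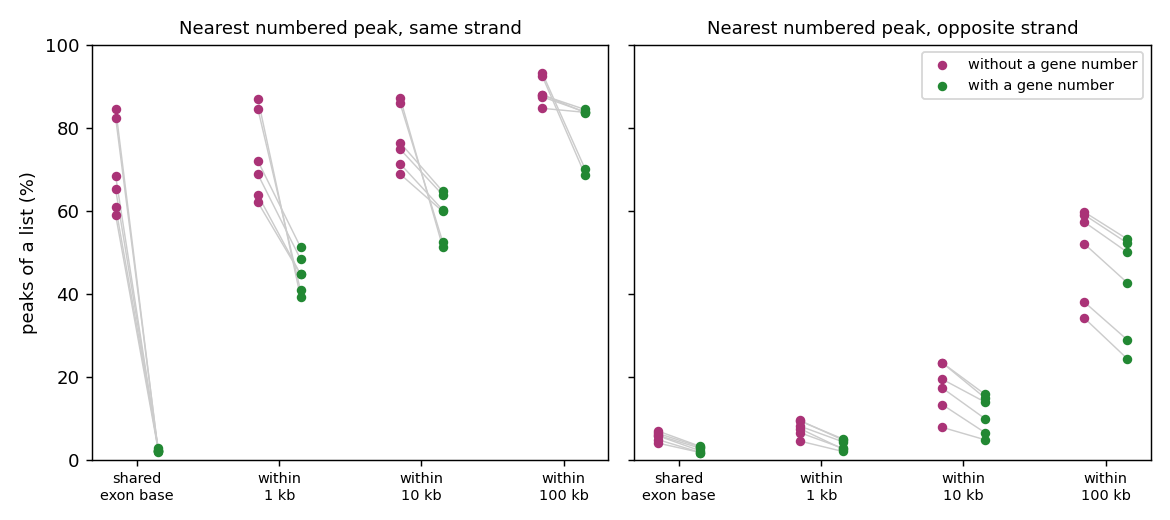
Share of the peaks of a list (vertical axis, %) that share an exon base with a numbered peak or lie within 1, 10 or 100 kb of one, on the same strand (left) and the opposite strand (right). Each point is a library, purple for peaks without and green for peaks with a gene number, and grey lines join the values of a library. On the same strand the shared-base values run from 58.9% to 84.6% for peaks without a number and from 1.79% to 2.84% for numbered peaks.

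Peaks without a number counted as near numbered peaks more often, where shared bases count as distance 0. A mean of 70.1% of them shared bases on the same strand, and these enter the same-strand values below. The unlike comparison between and within kinds enters there too. Within 10 kb of another numbered peak on the same strand lay 77.4% ± 7.55 (SD, n = 6 libraries) of the peaks without a number and 58.7% ± 5.64 of the numbered peaks, a difference of 18.7 percentage points in 6 of 6 libraries. The exact sign-flip permutation test gave p = 0.03125 and an adjusted p of 0.0625 over 6 tests. With only those peaks that shared no base with a same-strand numbered peak in any of the 6 lists, the difference was -40.4 percentage points. That choice removes the nearest peaks from 1 side of the comparison, so its direction is set by the choice and no test is given. It was also negative, -18.0 percentage points, when neighbours were sought in all 6 lists, where a numbered peak can meet its own listing from another library.

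On the opposite strand, 17.4% ± 6.07 of the peaks without a number and 11.0% ± 4.60 of the numbered peaks (SD, n = 6) lay within 10 kb of a numbered peak. The difference was 6.44 percentage points, in 6 of 6 libraries (exact sign-flip permutation test, p = 0.03125, adjusted p = 0.0625). It was 29.3 percentage points (adjusted p = 0.0375, exact sign-flip permutation test) for the peaks with no same-strand overlap in any list. Exon bases shared with a numbered peak across strands were found for 5.65% ± 1.05 of peaks without a number and 2.45% ± 0.659 of numbered peaks (adjusted p = 0.05 over 8 tests, exact sign-flip permutation test). For the peaks with no same-strand overlap in any list, this difference was 17.7 percentage points (adjusted p = 0.0357, exact sign-flip permutation test). The same test gave an unadjusted p of 0.03125 for both measures, with and without that filter. The adjusted p fell because more measures of the family stood at that floor, among them same-strand ones set by the choice.

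The lone regions were the only record of their site on their strand. Of the 783, 217 (27.7%) lay within 10 kb of a numbered peak on the same strand and 286 (36.5%) within 10 kb of one on the opposite strand. Within 10 kb on either strand lay 416 (53.1%), and 102 (13.0%) were more than 100 kb from any numbered peak on both strands. Few lay inside a gene as its numbered peaks delimit it: 61 fell between the outermost numbered peaks of a gene on the same strand and 93 inside such a span on the opposite strand, while 633 (80.8%) fell in neither.

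Where a lone region recurred in every library, it often faced a numbered peak on the other strand. There were 28 lone regions called in all 6 libraries. These were singled out after their values were seen. Of these, 14 shared exon bases with a numbered peak on the opposite strand, against 112 of the 783 (14.3%). A region of more and longer peaks has more bases that an opposite peak can meet, so this contrast is partly set by definition. At 10 of the 14 sites the opposite peak was listed in all 6 libraries. Over the 84 combinations of site and library the opposite peak was listed in 73 and its length was within 10% of the lone peak's in 32.

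The best-ranked such site with closely matched lengths faced FEM1A, a substrate receptor of a cullin ubiquitin ligase. The lone region (chromosome 19, 4792715 to 4794501, minus strand) covered 1758, 687 and 1758 nt in the knockdown and 1344, 420 and 1698 nt in the controls. The numbered FEM1A peaks on the plus strand covered 1729, 658 and 1759 nt and 1375, 359 and 1700 nt, so lengths on the strands differed by at most 61 nt in any library. Opposite ZNHIT2, a HIT-type zinc finger gene, at chromosome 11, 64883875 to 64884346 (plus strand), the lone peaks covered 443, 266 and 472 nt in the knockdown and 60, 207 and 413 nt in the control. The ZNHIT2 peaks had these same 6 lengths. Opposite ZNF337, a zinc finger gene, at chromosome 20, 25655719 to 25656915 (plus strand), they covered 1107, 150 and 1077 nt in the knockdown and 779, 121 and 957 nt in the control, with the ZNF337 peaks within 60 nt in every library.

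Further matched pairs faced TRIM41, a ubiquitin ligase gene, at chromosome 5, 180650284 to 180651855 (minus strand), and PRRC2B, at chromosome 9, 134374595 to 134375429 (minus strand). The largest differences in length between strands were 64 nt and 60 nt. Others did not match. The best-ranked lone region (lowest percentile 87.4), at chromosome 1, 156611517 to 156612770 on the minus strand, covered 1195, 779 and 1224 nt in the knockdown and 778, 419 and 1195 nt in the control. It faced BCAN, a brain proteoglycan gene, whose peaks there covered 661, 181 and 781 nt and 181, 0 and 751 nt. The region opposite SLC9A3, a sodium-proton exchanger gene, at chromosome 5, 479599 to 480910 (plus strand), covered 1252, 657 and 1312 nt in the knockdown and 1103, 150 and 1222 nt in the control, against 449, 61 and 240 nt and 150, 0 and 210 nt for SLC9A3. Opposite PPP1R15B, which directs a phosphatase to the translation factor eIF2, the numbered peak was the longer in 5 of 6 libraries. The libraries were made with a strand-preserving kit per the labels, but whether reads were counted by strand is not given in the sources used here. Without that, reads of facing transcripts cannot be told apart.

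**Figure D3:**
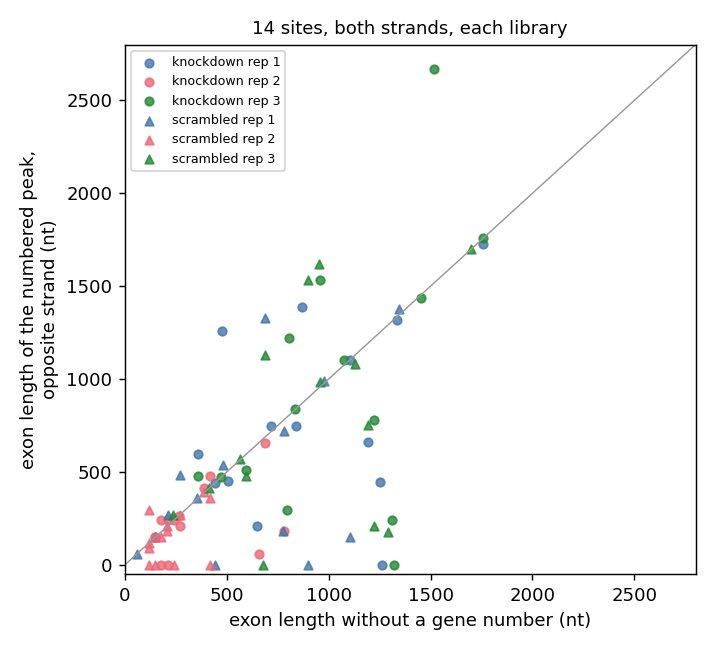
Exon length of the lone peak without a gene number (horizontal axis, nt) against that of the numbered peaks on the opposite strand at the same site (vertical axis, nt), for the 14 sites called in all 6 libraries that faced a numbered peak. Circles are knockdown and triangles control libraries, coloured by replicate, the grey line marks equal lengths, and a value of 0 means that no opposite peak was listed. Of the 84 points, 32 lie within 10% of equal length.

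Of the other 14 recurrent lone regions, 8 had no numbered peak within 10 kb on either strand. The best ranked of these (lowest percentile 43.7), at chromosome 5, 42985563 to 42992716 (minus strand), held 2 blocks and covered 1470, 722 and 1978 nt in the knockdown and 1290, 301 and 1858 nt in the control. The next, at chromosome 9, 98774687 to 98775643 (plus strand), covered 658, 121 and 808 nt in the knockdown and 479, 210 and 957 nt in the control. It lay 34302 bases from the nearest numbered peak on its strand, in ERCC6L2, a helicase-like gene of DNA repair, and that distance gives it no gene. A region at chromosome 1, 147751386 to 147761482 (plus strand), held 3 blocks and covered 1886, 241 and 1857 nt in the knockdown and 1229, 271 and 1977 nt in the control. Its nearest numbered peak on the same strand, in BCL9, was 654356 bases away. Nearer to a numbered peak, at chromosome 15, 40616681 to 40617098 (plus strand), a shorter region of lowest percentile 84.1 covered 299, 269 and 358 nt in the knockdown and 329, 209 and 418 nt in the control. It lay 6644 bases from a CCDC9B peak on the opposite strand. Knockdown and control values overlapped at each of these 4 sites, and at the chromosome 5 site the knockdown was the longer in all 3 pairs.

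The longest regions belonged to both kinds. The longest, 3892 nt, lay in ZNF646, a gene of many zinc fingers, at chromosome 16, 31089199 to 31093090 (plus strand). Its peaks without a number covered 3503, 902 and 3832 nt in the knockdown and 2641, 932 and 3416 nt in the control. AHDC1, which encodes an AT-hook DNA-binding protein, had 3079 nt at chromosome 1, 27873815 to 27876893 (minus strand), covered over 2989, 450 and 3079 nt in the knockdown and 1621, 450 and 2841 nt in the control. A region of 2866 nt in TMEM147-AS1, an antisense noncoding gene, lay at chromosome 19, 36033529 to 36036394 (minus strand) and also faced GAPDHS. It was covered over 2152, 180 and 2836 nt in the knockdown and 1228, 180 and 2479 nt in the control, while the numbered TMEM147-AS1 peaks there covered at most 740 nt and were absent from both replicate 2 lists.

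The other 2 of the 5 longest were lone. At chromosome 16, 87733245 to 87736167 (minus strand), 561 bases from a KLHDC4 peak, the lone peaks covered 2496, 338 and 2763 nt in the knockdown and 2011, 210 and 2269 nt in the control. At chromosome 2, 96490043 to 96492729 (minus strand), no numbered peak lay within 100 kb on either strand. This region was covered over 1766, 91 and 2420 nt in the knockdown and 569, 360 and 2391 nt in the control, and its lowest percentile of 0.8 was among the weakest calls of a list. In both, replicate 2 had the shortest peaks.

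Peaks without a number seldom held several exon blocks. Peaks of several exon blocks made up 3.84%, 1.29% and 6.03% in the knockdown and 2.36%, 0.948% and 5.69% in the controls. Among numbered peaks the share was 4.36% to 18.3%, and the difference averaged -8.30 percentage points, lower in 6 of 6 libraries (exact sign-flip permutation test, p = 0.03125, adjusted p = 0.0625). Lone regions had a peak of several blocks in 97 of 783 cases (12.4%) and sharing regions in 41 of 998 (4.11%). The most blocks, 16 over only 151 nt, were in a lone region called only in control replicate 3, at chromosome 22, 22840635 to 22883952 (plus strand), which faced ZNF280B. Another, at chromosome 1, 119683048 to 119693489 (plus strand), held 5 blocks and covered 779, 0 and 719 nt in the knockdown and 450, 0 and 749 nt in the control. A region facing PDPR, a regulator of pyruvate dehydrogenase phosphatase, and one in the pseudogene BMS1P20 had 4 blocks each, and the fifth, with 3 blocks, lay 4091 bases from AGRN and shared its place with other regions of 3 blocks.

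In length the peaks without a number stood close to the numbered ones. Their median exon length per list averaged 257 nt ± 81.9 against 240 nt ± 82.7 (SD, n = 6), and the difference of 16.75 nt did not pass the test (exact sign-flip permutation test, adjusted p = 0.0938). The median within-list score percentile was 50.7 ± 1.24 against 49.8 ± 0.229 (adjusted p = 0.25, exact sign-flip permutation test). For the peaks with no same-strand overlap in any list, the mean differences from the numbered peaks were -53 nt and -10.6 percentile points. The exact sign-flip permutation test gave an adjusted p of 0.0375 for each. That choice drops peaks from 1 side only, and longer peaks have more bases to share. The test cannot separate these differences from that selection. As regions, sharing ones had a median exon length of 476 nt, lone ones 239 nt and numbered ones 330.0 nt. Longer regions have more bases to share, so the contrast of sharing and lone regions is partly set by definition.

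Some regions without a number stood in runs, that is on 1 strand with gaps of at most 100 kb. Runs of numbered regions were not counted. Of the numbered peaks of a list, 68.7% to 84.4% lay within 100 kb of another on the same strand. Closeness at this scale was thus not particular to peaks without a number. The run with the most regions held 11 over SAMD9 and SAMD9L, at chromosome 7, 92730671 to 92765284 (minus strand). Its peaks covered 2979, 0 and 3576 nt in the knockdown and 1443, 0 and 6032 nt in the control, so none of the 11 was called in total RNA. A run of 7 regions at chromosome 11, 94730685 to 94890915 (plus strand), began in KDM4D, a histone demethylase gene, and went on with 6 lone regions. It was covered over 1614, 150 and 2952 nt in the knockdown and 987, 210 and 2980 nt in the control. A run of 7 on the plus strand of chromosome 19, 42582819 to 42730568, held 3 regions in ZNF574, 1 in ZNF526 and 3 lone ones between them. The other 2 runs of 7 lay over SNX21 and ZSWIM1 on chromosome 20, and over GPR146 and GPER1, receptor genes, on chromosome 7. The latter, like SAMD9, had 0 regions in both total RNA libraries.

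Sharing regions recurred over the libraries more evenly than lone ones, in part by definition. A region of more and longer peaks has more bases that a numbered peak can meet, and 1 overlap makes it sharing. Of the sharing regions 206 (20.6%) were called in all 6 libraries and 183 (18.3%) in 1, while of the lone regions 28 (3.58%) were called in all 6 and 303 (38.7%) in 1. Numbered regions lay between, with 13.0% in all 6 and 28.6% in 1. All 1781 regions without a number had 13.1% in all 6 and 27.3% in 1. Within the same-numbered pair, a mean of 79.5% ± 6.62 of the regions without a number and 76.4% ± 8.35 of the numbered regions of a library (SD, n = 6) were also called in its partner, which did not pass the test (exact sign-flip permutation test, adjusted p = 0.15). Split by kind, the means were 83.5% ± 7.65 for sharing and 72.3% ± 8.11 for lone regions.

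**Figure D4:**
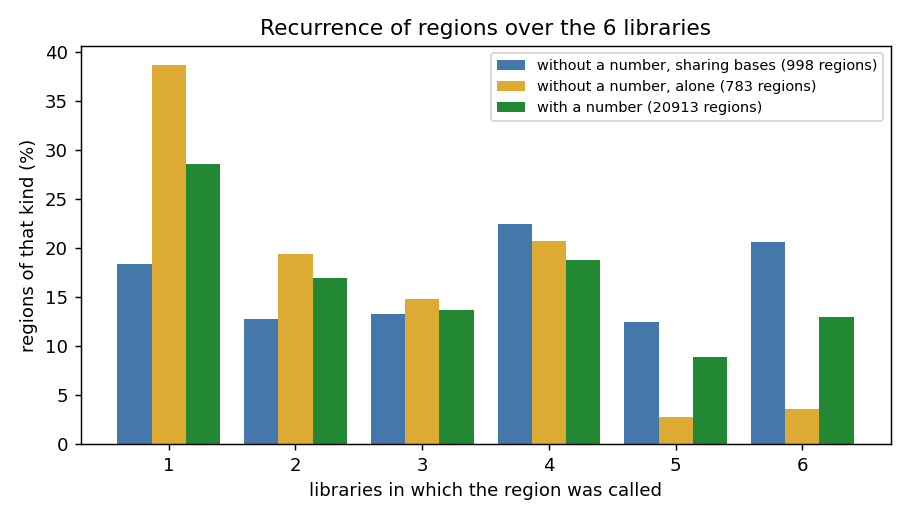
Share of regions (vertical axis, %) called in 1 to 6 libraries (horizontal axis), for 998 sharing regions (blue), 783 lone regions (yellow) and 20913 numbered regions (green). The largest share of lone regions falls in 1 library (38.7%) and sharing regions reach all 6 in 20.6%.

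Lone regions were rarely called in total RNA. Just 54 of the 783 (6.90%) were called in a replicate 2 library, against 343 of the 998 sharing regions (34.4%) and 25.7% of numbered regions. Lone regions called in all 4 libraries of polyadenylated RNA and in neither of total RNA numbered 158 (20.2%), against 214 sharing regions (21.4%) and 16.9% of numbered regions. The RNA type, the antibody, the kit and the shorter lists of replicate 2 cannot be told apart. The definition of sharing and lone regions also enters these shares, as it does for recurrence.

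By chromosome, X held more of the peaks without a number than of the numbered ones. They made up 4.45% of the peaks without a number and 2.30% of the numbered peaks, a ratio of 1.94, higher in 6 of 6 libraries. Chromosome 21 followed with 2.18% against 1.34% and chromosome 13 with 2.66% against 1.83%. Chromosome 12 was the lowest by ratio, with 2.96% against 4.54%, lower in 6 of 6 libraries. Of 23 chromosomes compared, 8 were higher and 6 lower in all 6 libraries, and these 14 had p = 0.03125 in the exact sign-flip permutation test. After adjustment over chromosomes 0 passed, with a smallest adjusted p of 0.0513. Control replicate 3 also listed 2 peaks on the mitochondrial sequence, where no numbered peak was listed in any library.

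The comparison of siRNAs asked whether sites without a gene number gained or lost m6A peaks after ALKBH5 knockdown. At 3 libraries against 3 no single region can pass a test. Of the 1781 regions 1 was called in every knockdown library but in no control, and 0 the reverse, against 0.129% and 0.00923% of the 21675 regions of all peaks. That region lay in ANKRD34A, an ankyrin repeat gene, at chromosome 1, 145473538 to 145473746 (plus strand). Its peaks covered 209, 120 and 150 nt in the knockdown and were absent from the controls. The numbered ANKRD34A peaks at the site covered 329, 91 and 120 nt in the knockdown and were absent from the controls too, so both listings separated the libraries alike. Its lowest percentile was 21.1. It was no longer counted when blocks were extended by 100 bases before joining, which left 0 such regions, nor among the best-scored 50% of each list. There 2 other regions were counted, at chromosome 2, 70165169 to 70165559, and chromosome 21, 47552045 to 47552583 (both plus strand), which the full lists also gave in 2 and 1 control libraries. Leaving out a library changed these counts. Without knockdown replicate 2, 32 (1.797%) were called in the knockdown alone, against 2.32% of all regions. Without control replicate 2, 21 (1.18%) were called in the control alone, against 0.863%, and 2 in the knockdown alone, against 0.152%. Without control replicate 3 the knockdown alone had 9 (0.505%), against 1.02%, and without control replicate 1 it had 2, against 0.189%. Without knockdown replicate 3 the control alone had 1, against 0.0738%.

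The region next to it in ANKRD34A, at 145473895 to 145474581, was also listed in control replicate 3, covering 419, 269 and 657 nt in the knockdown and 0, 0 and 180 nt in the control. In all, 10 regions (0.561%) were called in 3 knockdown libraries and 1 control, and 1 (0.0561%) in 1 and 3, against 0.978% and 0.106% of all regions, so the excess of the knockdown was also present over all regions. These were named after their values were seen. Among the 10 were regions in FZD5, a Wnt receptor gene, TSSK6, a kinase gene of the testis, COL6A2, a chain of collagen VI, C14orf119, LINC02591 and ANKRD34A, and 3 were lone. In COL6A2, at chromosome 21, 47552045 to 47552583 (plus strand), the peaks covered 270, 390 and 539 nt in the knockdown and 0, 0 and 360 nt in the control. The numbered COL6A2 peaks gave 270, 390 and 540 nt and 0, 0 and 360 nt. In FZD5, at chromosome 2, 208631766 to 208632421 (minus strand), they covered 90, 90 and 656 nt and 0, 0 and 478 nt, but the numbered FZD5 peaks were also present in control replicate 1, at 211 nt. At C14orf119 the numbered peaks were present in all 3 controls, at 268, 150 and 893 nt. The lone region at chromosome 10, 133782290 to 133783303 (minus strand), 424 bases from a BNIP3 peak, covered 239, 120 and 985 nt and 0, 0 and 628 nt. The region called in 1 and 3 lay in ZNF70, a zinc finger gene, with 0, 0 and 448 nt in the knockdown and 329, 120 and 358 nt in the control.

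Within pairs, regions without a number differed between the siRNAs at shares near or below those of all regions, except in the control of replicate 3. In replicate 1, 311 (17.5%) had a call in the knockdown alone and 112 (6.29%) in the control alone, against 21.2% and 7.99% of all regions. In replicate 2 the counts were 93 (5.22%) and 61 (3.43%), against 6.01% and 5.42%. In replicate 3 they were 192 (10.8%) and 300 (16.8%), against 11.3% and 13.2%. Lone regions of replicate 3 stood out by value, with 112 (14.3%) called in the knockdown alone and 193 (24.6%) in the control alone, a difference that was not tested. Over all libraries, 523 regions (29.4%) were called in more knockdown than control libraries and 421 (23.6%) in fewer, against 32.6% and 23.1% of all regions. Equal numbers of libraries called 837 (47.0%), against 44.3%.

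**Figure D5:**
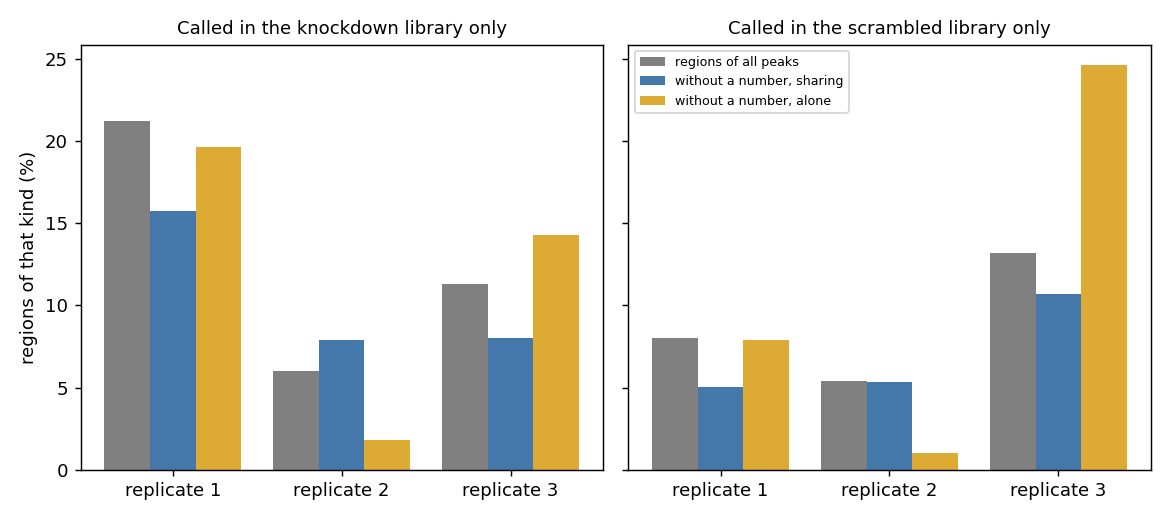
Share of regions (vertical axis, %) called in only 1 library of a same-numbered pair, the knockdown (left) or the control (right), for all 21675 regions (grey), sharing regions (blue) and lone regions (yellow). The highest bar is the 24.6% of lone regions called only in control replicate 3.

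Where a call differed within a pair, some of the differing regions had a numbered peak at the site in the other library. Lone regions have none in any list by definition and could not count. Of the 311 regions without a number called only in the knockdown of replicate 1, 150 had a numbered peak on top of them in that library and 23 (7.40%) had one in the control library, where the peak without a number was missing. Of the 311, 157 were sharing regions, the only ones that could have such a peak. In the other pairs and directions such a numbered peak was found for 3.57% to 5.73% of the differing regions, lone ones included.

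Regions called in both libraries of a pair were compared by length. In replicate 1, 611 of 785 such regions (77.8%) were longer in the knockdown, with a median difference of 120 nt, against 78% of all regions. In replicate 2 it was 133 of 243 (54.7%), against 51%, and in replicate 3 it was 521 of 1173 (44.4%), against 47.2%. Shorter in the knockdown were 17.1%, 37.0% and 42.5%, against 17.5%, 40% and 43.3%. In each pair these shares were close to those of all regions.

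None of the 5 library measures tested passed, and none could at this design. The knockdown lists held 1127 ± 575 peaks without a number and the control lists 1103 ± 615 (SD, n = 3), a difference of 24 (two-sided exact permutation test, p = 0.9, with 0.1 the smallest that this design allows). Their share of the list was 8.04% ± 0.176 against 8.16% ± 0.636 (exact permutation test, p = 0.9, n = 3). They covered 448 kb ± 323 against 392 kb ± 336 of exon (exact permutation test, p = 0.9, n = 3), and the within-pair differences were 172, 14.8 and -18.4 kb. Median exon length was 268 nt ± 88.8 against 246.0 nt ± 92.2 (exact permutation test, p = 0.7, n = 3), higher in the knockdown by 61, 0.5 and 5 nt. The share with several blocks was 3.72% ± 2.37 against 3.00% ± 2.43 (exact permutation test, p = 0.7, n = 3), higher in the knockdown by 1.48, 0.340 and 0.337 percentage points. The exact sign-flip test of the 3 pairs gave p = 0.25 for these last measures, the smallest that 3 pairs allow. Numbered peaks differed too, by 60, 0 and 0 nt in median length. Their share with several blocks was higher in the knockdown by 3.24, 0.430 and 3.26 percentage points. Among untested measures, the share of peaks with no same-strand overlap in their own list that lay within 10 kb of a same-strand numbered peak was higher in the knockdown by 2.38, 2.59 and 2.51 percentage points. It was picked after the values were seen. Other measures also kept 1 direction in all 3 pairs, such as the share with bases in an opposite-strand numbered peak. The difference in number turned negative without knockdown replicate 1 (-115), knockdown replicate 3 (-167), control replicate 2 (-317) or both libraries of replicate 1 (-31.5).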

How the data were processed

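The authors deposited 1 peak list for each immunoprecipitate, with exon blocks and a score, so peaks were called per library. Per the submitters' processing notes, CASAVA 1.8.2, TopHat2 and SAMtools were used on hg19. Their roles, the peak caller and the use of input: not given in the sources used here. The deposited score ran from 2e-40 to 0.011, was treated as a p-value and served only to rank peaks within a list. All peaks lay on standard chromosomes. Coordinates are hg19, counted from 1. A RefSeq table of GRCh38.p14 gave symbols, and no positions, for 10500 of 10536 gene numbers.

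Lists were read with Python 3.11.15 and pandas 2.3.3. Regions, shared bases and distances were tested on simulated lists. Knockdown and control were compared with two-sided exact permutation tests, and peaks with and without a number with exact sign-flip permutation tests over 6 libraries, with Benjamini-Hochberg adjustment over 6 measures, over 8 for shared bases (added later) and over 23 chromosomes, at 0.05. Named regions were the best 10 called in all libraries, those that separated the siRNAs, the 5 longest, the 5 with most blocks and the 5 densest runs. The members, lists and rules were chosen with earlier results of these data known. Libraries of 1 replicate number were treated as pairs, since the protocol in the labels gives every number its own RNA type and antibody. Their calls, taken as deviations from the siRNA's mean, correlated at 0.271, 0.358 and 0.164 in replicates 1, 2 and 3.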

Additional observations from a re-analysis of the deposited data

Results flagged for a closer look

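The share of peaks without a gene number was lower in the knockdown in both pairs of polyadenylated RNA and higher in the pair of total RNA. The differences were -0.39 and -0.412 percentage points in replicates 1 and 3 and 0.442 in replicate 2. The pairs were set side by side for their opposite directions, and the difference between RNA types, with 1 pair of total RNA, was not tested.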

How the results depend on the processing

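For peaks without and with a number, 8 differences were recomputed. With only the peaks that share no same-strand base with a numbered peak in any list, median length (-53 nt), score percentile (-10.6) and the share called in the partner library (-3.98 percentage points) turned negative. So did the share within 10 kb (-40.4) and the shared bases (-2.22) on the same strand, by construction. Several blocks (-6.23), nearness on the opposite strand (29.3) and bases shared across strands (17.7 percentage points) passed the threshold only there. Their unadjusted p was 0.03125 with and without the filter (exact sign-flip permutation test). The adjusted p fell because more measures of the family stood at that floor, among them same-strand ones set by the choice. These passes therefore add no support. With neighbours from all 6 lists, same-strand nearness was -18.0 percentage points.

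Of the knockdown comparisons, the share of the list turned to 0.0106 percentage points without the overlapping peaks. Regions in all knockdown and no control libraries numbered 2 in the best-scored 50% of each list, and 0 without the overlapping peaks or with blocks extended by 100 bases. Leaving out replicates, the difference in number ran from -317 to 355, in share from -0.481 to 0.121 percentage points, in covered length from -99.5 to 234 kb, in median length from -21.75 to 74.7 nt and in several blocks from -0.435 to 2.06 percentage points. Regions in all libraries of the knockdown alone ran from 1 to 33 and of the control alone from 0 to 21. With the replicate block the differences kept their values, 24 peaks and -0.12 percentage points among them, and no call could have changed at 3 pairs. Limiting the lists to standard chromosomes changed nothing. The cause of these changes, other than by construction, was not tested. Depth could not be read from the lists, so an absent peak may be an undetected one.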
